A study of Hordeum vulgare with 6 samples.

Results

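Plants answer mechanical damage with a set of proteins named for that response, and the name covers several unrelated families. Barley genes with such names were compared here between young panicles of the *msnsd* mutant and of its parent E934. Of the 40411 genes in the deposited table, 19 were chosen by their description, which had to hold "wound-induced" or "wound-responsive". No expression value entered that match. The group itself was taken up because results of *msnsd* against E934 in these same libraries were already known, so the comparison below is a description of these libraries and no independent evidence. E934 is the parent barley variety, labelled wild type, and *msnsd* is a dwarf mutant line named for its many stem nodes and spikes, which was obtained from E934 after treatment with EMS, a chemical mutagen, and with radiation from 60Co. The mutant plants may carry other changes from this treatment, so effects of the *msnsd* locus and of any other induced change cannot be told apart here. Panicles of 0.5 to 1 cm, between the glume and lemma primordium stages, gave 6 RNA-seq libraries, 3 biological replicates of each genotype.

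The largest of the families carries the domain PF12609 (10 of the 19 genes), found in small plant proteins whose transcripts accumulate after wounding and whose biochemical role is little known. A pair of genes carries PF07107 (2 genes), the domain of WI12, a cell wall protein induced by wounding in ice plant, and of WUN1 in potato. The 5 genes described as wound-induced protease inhibitors have GO terms of serine-type endopeptidase inhibitors, and 1 of them lists the Bowman-Birk entry of InterPro. Inhibitors of this type block digestive proteases of insects and are classical products of damaged leaves. The last 2 genes are named wound-responsive but carry PF08729, the domain of ubinucleins, which are nuclear partners of the HIRA histone chaperone that places histone H3 variants in chromatin. Many wound genes respond to jasmonate, the hormone that spreads the damage signal.

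Values are TPM, reads per transcript length scaled to the same total in every library, so depth per library is unknown. The column sums lay between 999916 and 999936, and from 33227 to 35537 genes were above 0 in a library. Correlations of log2 values across genes, which are not independent replicates, ran from 0.950 to 0.959 within a genotype and from 0.948 to 0.954 between genotypes. Spike genes were present, with 1301 to 1440 TPM per E934 library and 1201 to 1232 TPM per *msnsd* library summed over 59 MADS-box genes and 227 to 247 TPM over 10 knotted-type homeobox genes. Green tissue genes were also present. The 31 chlorophyll a-b binding genes summed to 364 to 416 TPM in E934 and 316 to 559 TPM in *msnsd*, and the 6 genes of the RuBisCO small chain to 117 to 255 and 192 to 235 TPM. The ranges of green tissue genes overlapped between genotypes, and those of the MADS-box sum did not. Their part in the values below was not tested. Whole panicles were sequenced, so more cells of a type and more RNA per cell cannot be told apart.

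Among the members, 6 PF12609 genes stand together on chromosome 2H, from 641708441 to 641839482 (Morex V3), 131 kb. Neither these nor any other member passed the threshold given below. The *msnsd* mean was the higher one for all 6, by 1.82 to 2.84 on the log2 scale, and in 5 of them every *msnsd* library exceeded every E934 library, as it did in 8.73% of all genes tested. The summed TPM of the 6 genes was 112, 55.9 and 23.0 in E934 replicates 1, 2 and 3 and 198, 165 and 282 in the *msnsd* replicates. The lowest *msnsd* sum was thus above the highest E934 sum. The means were 63.6 ± 45.1 and 215 ± 60.7 TPM (SD, n = 3), a ratio of 3.38. This ratio was 5.46 without E934 replicate 1, the E934 library with the highest sum, and 2.56 without E934 replicate 3, the lowest.

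Members were read from a fit of log2(TPM + 0.1) with limma over the 32968 genes whose TPM averaged 0.1 or more, a filter that 18 of the 19 members passed. The log2 difference is *msnsd* minus E934 in that fit, given ± its standard error, and it understates the change of genes with low TPM. The threshold asked for a log2 difference of 1.5 or more in either direction and a Benjamini-Hochberg adjusted p of at most 0.05. In this fit none of the 18 members was past it (0 of 18), beside 0.0485% of all genes tested. Both cutoffs are those of the study's methods, which used DESeq2 instead, so the study's own calls can differ. The smallest adjusted p of a member was 0.148. Before adjustment, 7 members had a limma p under 0.05 with the higher mean in *msnsd* and 0 with the lower, beside 5.58% and 5.09% of all genes tested. The same 7 members had libraries that did not overlap, all higher in *msnsd*, beside 8.73% of tested genes higher and 7.86% lower without overlap. Nothing is read from these counts, because the group was taken up with this comparison known. The median log2 difference was 1.29 over the 18 members, 1.82 over the 10 PF12609 members and -0.02 over all genes tested.

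**Figure D1:**
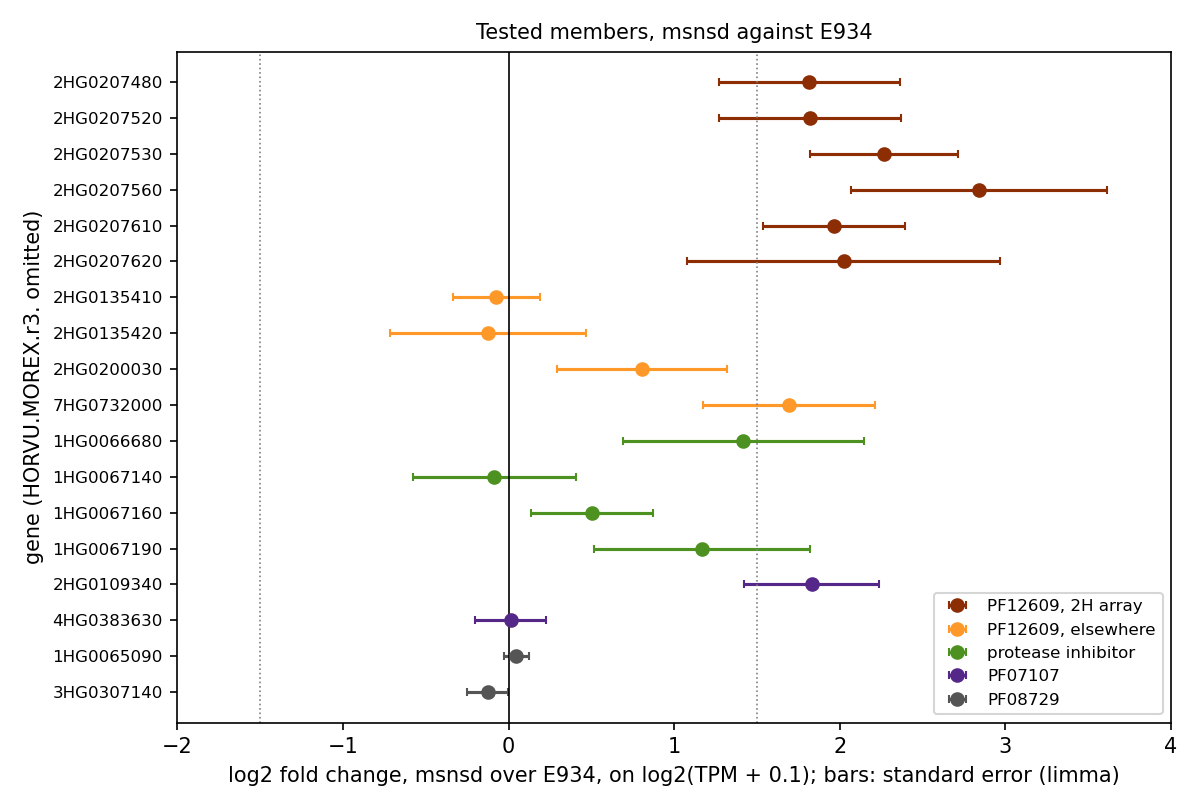
Log2 difference of the 18 tested members, *msnsd* minus E934 in log2(TPM + 0.1) units (x axis), with the standard error from limma as bars and 3 libraries per genotype. Dotted lines stand at 1.5 in either direction. The 6 genes of the 2H array lie between 1.82 and 2.84. The 2 PF08729 genes lie next to 0, as do 4HG0383630, 1HG0067140 and the PF12609 genes 2HG0135410 and 2HG0135420.

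The array holds 10 genes of the table from its first to its last member. Members of an array were allowed at most 10 other genes between neighbours. The first, HORVU.MOREX.r3.2HG0207480 (641708441 to 641708713), had TPM values of 10.93, 11.27 and 3.58 in E934 and of 33.56, 14.24 and 41.77 in *msnsd*. Its lowest *msnsd* library, replicate 2, was only slightly above the E934 libraries 1 and 2. The log2 difference was 1.82 ± 0.54 (limma adjusted p = 0.318).

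After a gap of 32.7 kb came HORVU.MOREX.r3.2HG0207520 (641741404 to 641741676), the member with the highest TPM in the array in every library. It had TPM values of 76.71, 28.17 and 14.85 in E934 and of 105.61, 88.45 and 153.08 in *msnsd*. The E934 libraries were far apart, with a coefficient of variation of 81.6% against 28.9% in *msnsd*, and replicate 1 came close to the lowest *msnsd* library. Its log2 difference was 1.82 ± 0.55 (limma adjusted p = 0.322). This gene alone made up 50.4% to 68.4% of the array's summed TPM in E934 and 53.3% to 54.2% in *msnsd*. The other 5 members together had a ratio of 4.18 between the genotype means.

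The next gene, HORVU.MOREX.r3.2HG0207530 (641747176 to 641747448), lay 5.50 kb further. It had TPM values of 4.68, 3.27 and 1.34 in E934 and of 10.60, 12.52 and 19.11 in *msnsd*. Every *msnsd* library was above 10 TPM, and no E934 library reached 5 TPM. With a log2 difference of 2.27 ± 0.45, it had the smallest adjusted p of the members (limma, 0.148).

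HORVU.MOREX.r3.2HG0207560 (641756256 to 641756528) had the largest log2 difference of the tested members over all 6 libraries. It had TPM values of 13.45, 7.81 and 1.25 in E934 and of 30.38, 38.46 and 45.06 in *msnsd*, means of 7.50 ± 6.11 and 38.0 ± 7.35 TPM (SD, n = 3). The *msnsd* libraries were close to each other, while E934 replicate 3 stood far below the other E934 libraries. The log2 difference was 2.84 ± 0.77 (limma adjusted p = 0.277). Without E934 replicate 3 it was 1.86 and no longer the largest, and with a pseudocount of 0.01 it was 2.88, below the 3.16 of HORVU.MOREX.r3.2HG0207620.

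A gap of 72.7 kb separated it from the last pair. HORVU.MOREX.r3.2HG0207610 (641829211 to 641829784) had TPM values of 5.66, 4.99 and 1.93 in E934 and of 17.14, 10.31 and 19.57 in *msnsd*, without overlap. Its log2 difference was 1.96 ± 0.43 (limma adjusted p = 0.186). HORVU.MOREX.r3.2HG0207620 (641838973 to 641839482) was the lowest and the only array member whose libraries overlapped. It was listed at 0.67, 0.38 and 0 TPM in E934 and at 0.84, 0.57 and 3.84 in *msnsd*, with *msnsd* replicate 3 far above the other libraries (log2 difference 2.02 ± 0.95, limma adjusted p = 0.498). Pseudocounts of 1 and 0.01 gave 0.87 and 3.16 in its place, and the value came to 1.16 without E934 replicate 3 and to 1.25 without *msnsd* replicate 3.

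**Figure D2:**
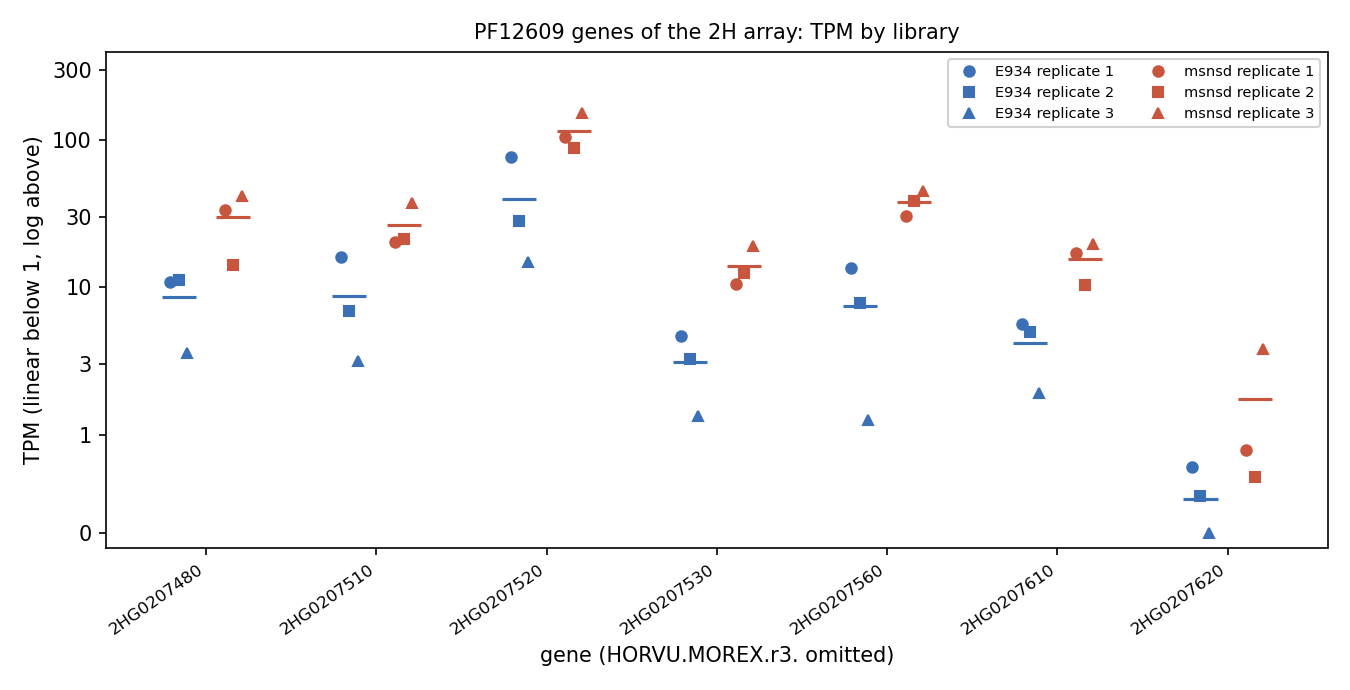
TPM of the 7 PF12609 genes of the 2H array in each library (y axis, linear below 1 and logarithmic above), with a marker per replicate and a line at the mean of the 3 libraries of a genotype. E934 replicate 3 (triangle) is the lowest E934 library for each gene, and the genotypes overlap only at the last gene, 2HG0207620.

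Between the members lay 4 genes without a wound description. HORVU.MOREX.r3.2HG0207510 (641737796 to 641738343), a low-confidence gene, is described as DNA-directed RNA polymerase subunit alpha, yet its only listed Pfam domain is PF12609, and it was the 1 gene of the table with that domain outside the 19. It had TPM values of 15.99, 6.87 and 3.18 in E934 and of 20.21, 21.38 and 37.55 in *msnsd*. As in 5 of the 6 members, the *msnsd* libraries lay above the E934 libraries, and its log2 difference was 1.83 ± 0.55 (limma adjusted p = 0.321). Adding it to the array gave a ratio of 3.34. The other 3 genes, described as a Pol polyprotein, a calcium-dependent protein kinase and a Pol polyprotein of a transposon, had mean TPM below the filter, at 0.0150 to 0.0950.

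Genes beside the array had smaller log2 differences. Of the 10 genes of the table on each side, a set chosen after the members' values were seen, 13 of 20 were tested. Of these, 0 had a limma p under 0.05 before adjustment with the higher mean in *msnsd* and 2 with the lower. All genes tested gave 5.58% and 5.09%, and nothing is read from counts over 13 genes. The median log2 difference of the 13 was -0.10 (range -0.80 to 1.00). The nearest gene upstream, HORVU.MOREX.r3.2HG0207450, a histidine--tRNA ligase that charges tRNA for protein synthesis, had TPM values of 20.04, 20.93 and 19.70 in E934 and of 17.28, 20.50 and 18.93 in *msnsd*, which overlapped.

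**Figure D3:**
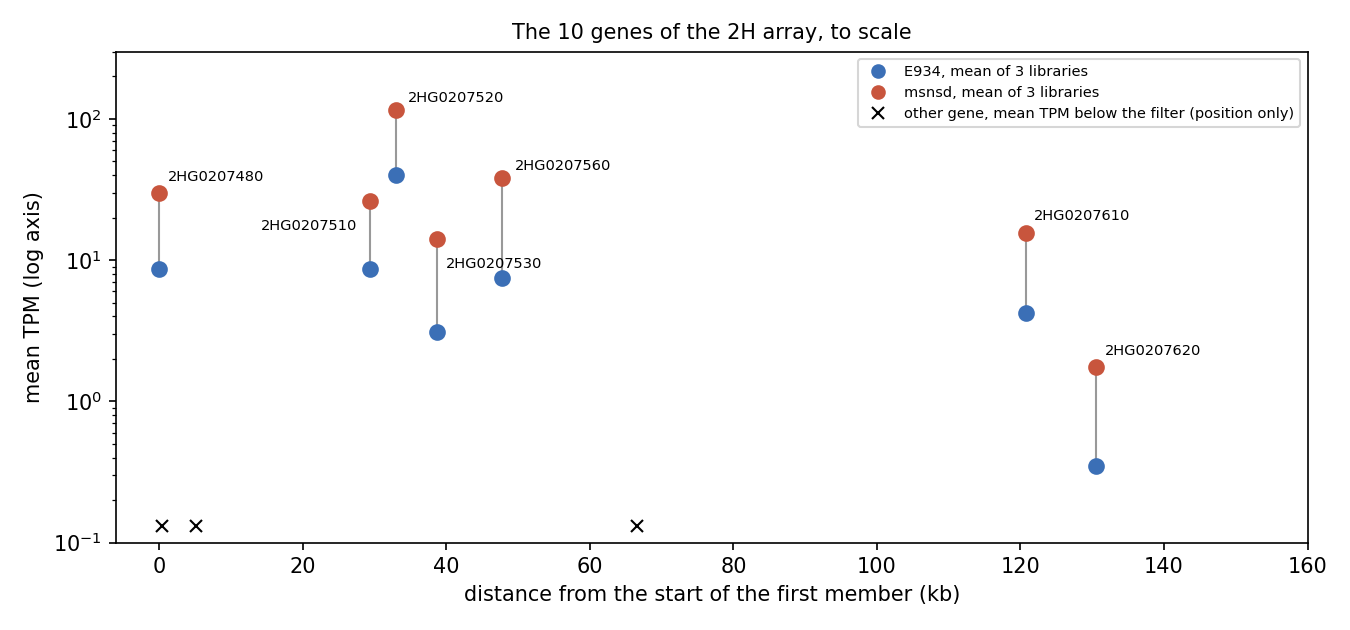
Mean TPM of 3 libraries per genotype (y axis, log scale) for the genes of the 2H array at their distance from the start of the first member (x axis, kb, to scale). Points of a gene are joined by a line, and crosses mark the position alone of the 3 genes below the filter. Each of the 7 PF12609 genes has its *msnsd* point above its E934 point, across the 131 kb.

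Levels within the array depend on the length of the gene models. The deposited models of HORVU.MOREX.r3.2HG0207480, HORVU.MOREX.r3.2HG0207520, HORVU.MOREX.r3.2HG0207530 and HORVU.MOREX.r3.2HG0207560 all span 273 bp, whereas the RefSeq models at the same places of this assembly span 528 to 590 bp. HORVU.MOREX.r3.2HG0207610, with a model of 574 bp, had a lower TPM than HORVU.MOREX.r3.2HG0207560 (means of 9.93 and 22.7 over all libraries). Its mean normalized count, the authors' mean over the 6 libraries of reads scaled for depth but not for length, was larger (116 and 56.4). The order of levels among the members differed between the scales. The TPM of each member was also multiplied by its mean normalized count divided by its mean TPM over all libraries. The summed values then had a ratio of 3.47 between the genotype means. A member's multiplier was the same in every library, so its own ratio could not change. The effect of model length on the ratio between genotypes was thus not tested. The mean normalized counts ran from 12.4 to 193 over the array members, so several of them rest on few reads. Copies that resemble each other can share reads, and how the authors' quantification divided them was not tested.

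The E934 libraries differed among themselves in opposite ways. E934 replicate 3 was the lowest E934 library in 6 of the 6 array members. Among the 12 other tested members, E934 replicate 1 was the lowest in 9 and E934 replicate 3 in 2. The E934 libraries thus had no common order over the wound-named genes.

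The other 4 PF12609 members differed from each other. HORVU.MOREX.r3.7HG0732000 on chromosome 7H (582844822 to 582845430) had TPM values of 1.69, 2.77 and 0.80 in E934 and of 5.03, 3.17 and 9.22 in *msnsd*. It did not overlap between genotypes, and its log2 difference of 1.69 ± 0.52 (limma adjusted p = 0.332) was near those of the array. As in the array, E934 replicate 3 was its lowest library and *msnsd* replicate 3 its highest.

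HORVU.MOREX.r3.2HG0200030, also on 2H but outside the array (623231041 to 623231307), had TPM values of 3.72, 16.24 and 7.57 in E934 and of 11.00, 11.20 and 20.18 in *msnsd*. Here E934 replicate 2 was above 2 of the 3 *msnsd* libraries, and the log2 difference was 0.80 ± 0.51 (limma adjusted p = 0.604). Without that library it was 1.33, and without E934 replicate 1 it was 0.29.

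The last 2 are neighbours on 2H (170724549 to 170800631, 76.1 kb from first to last base), with no other gene of the table between them. HORVU.MOREX.r3.2HG0135410, a low-confidence gene, had the highest TPM of all 19 members when averaged over the 6 libraries (93.7, against 77.8 for HORVU.MOREX.r3.2HG0207520), although in *msnsd* alone HORVU.MOREX.r3.2HG0207520 was higher. It had TPM values of 60.47, 108.35 and 125.10 in E934 and of 76.89, 96.06 and 95.27 in *msnsd*, means of 98.0 ± 33.5 and 89.4 ± 10.8 TPM (SD, n = 3). All *msnsd* values lay within the E934 range (log2 difference -0.07 ± 0.26, limma adjusted p = 0.938). Its neighbour HORVU.MOREX.r3.2HG0135420, with a model of 210 bp, had TPM values of 5.55, 28.39 and 18.91 in E934 and of 11.29, 9.74 and 20.95 in *msnsd* (log2 difference -0.13 ± 0.59, limma adjusted p = 0.954). These were also the only 2 members that no RefSeq gene model of the assembly overlaps. The other 17 overlapped 17 separate RefSeq models. The pair together gave 116 ± 43.1 TPM in E934, against 103 ± 14.2 TPM in *msnsd* (SD, n = 3). The difference between this pair and the array was not tested.

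**Figure D4:**
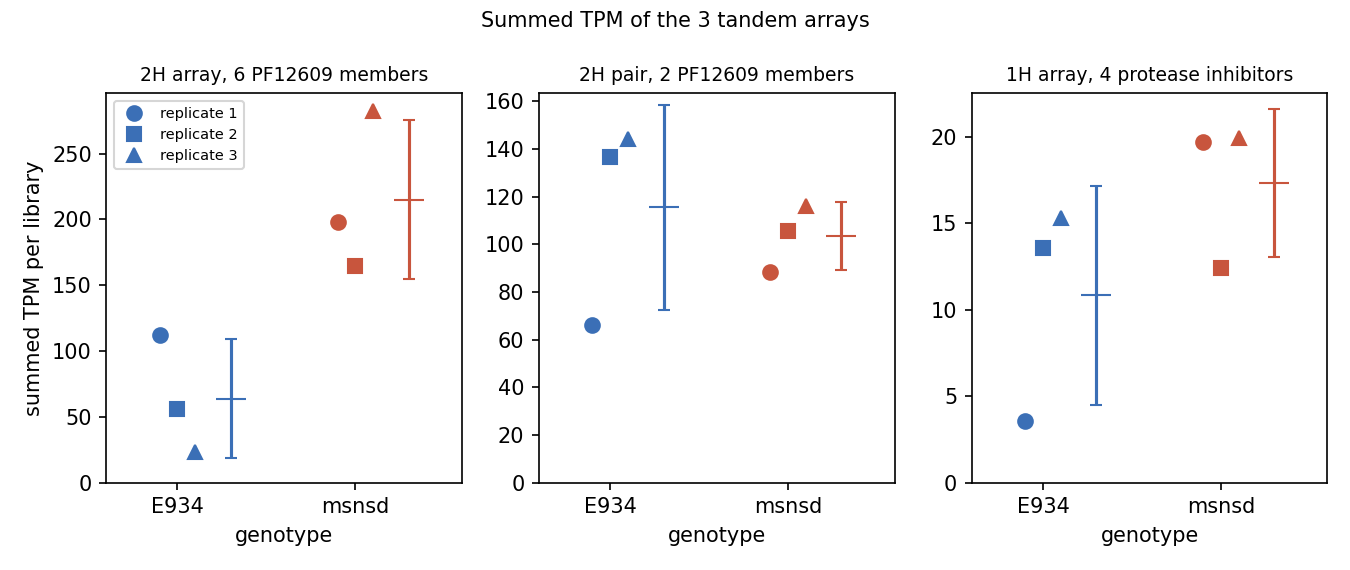
Summed TPM per library (y axis, from 0) of the 3 tandem arrays, with a marker per replicate and the mean ± SD of 3 libraries beside them. E934 and *msnsd* separate in the 2H array (22.95 to 112.1 against 164.55 to 282.43 TPM) and overlap in the 2H pair and in the 1H array.

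Of the 5 protease inhibitor genes, 4 form an array on 1H (437186579 to 437403955, 217 kb) with no other gene of the table between them, and HORVU.MOREX.r3.1HG0066680 lies apart (435271850 to 435272561). The most abundant, HORVU.MOREX.r3.1HG0067190 (437403224 to 437403955), had TPM values of 1.71, 8.60 and 10.57 in E934 and of 14.58, 8.49 and 15.02 in *msnsd*. Its *msnsd* replicate 2 fell within the E934 range, and E934 replicate 1 was far below all other libraries. The log2 difference was 1.17 ± 0.65 (limma adjusted p = 0.546), and 0.36 without E934 replicate 1. HORVU.MOREX.r3.1HG0067160 (437250816 to 437251854) had TPM values of 1.48, 3.26 and 4.10 in E934 and of 4.48, 3.29 and 3.99 in *msnsd*. Apart from E934 replicate 1, its libraries lay between 3.26 and 4.48 TPM (log2 difference 0.50 ± 0.37, limma adjusted p = 0.658).

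The remaining inhibitor genes were near the limit of what the table lists. HORVU.MOREX.r3.1HG0067140 (437186579 to 437187316) had TPM values of 0.40, 1.57 and 0.66 in E934 and of 0.63, 0.62 and 0.91 in *msnsd* (limma adjusted p = 0.962). HORVU.MOREX.r3.1HG0067180 (437323273 to 437324462) was listed at 0.15 TPM in E934 replicate 2 and at 0 in the other 5 libraries, and was the 1 member that did not pass the filter. HORVU.MOREX.r3.1HG0066680 had TPM values of 0.07, 0 and 0.34 in E934 and of 0.56, 0.16 and 0.73 in *msnsd*, which overlapped. Its log2 difference of 1.42 ± 0.73 (limma adjusted p = 0.522) depended on the pseudocount and was 0.38 with 1 and 2.67 with 0.01. The 1H array had summed TPM of 3.59, 13.58 and 15.33 in E934 and of 19.69, 12.40 and 19.92 in *msnsd*, which overlapped.

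The PF07107 genes differed in level and in the comparison. HORVU.MOREX.r3.2HG0109340 (2H, 29995756 to 29996055) was low, with TPM values of 0.63, 1.73 and 0.72 in E934 and of 4.27, 4.07 and 2.60 in *msnsd*. Its libraries did not overlap, and the log2 difference was 1.83 ± 0.41 (limma adjusted p = 0.190). The mean normalized count of this gene was 7.20, so the value rests on few reads. HORVU.MOREX.r3.4HG0383630 (4H, 440933564 to 440934571) was abundant, with TPM values of 32.95, 57.46 and 39.57 in E934 and of 42.19, 36.55 and 49.88 in *msnsd*. Its means of 43.3 ± 12.7 and 42.9 ± 6.69 TPM (SD, n = 3) differed by less than the spread between replicates (log2 difference 0.01 ± 0.21, limma adjusted p = 0.988).

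The ubinuclein-type genes were the steadiest members. HORVU.MOREX.r3.1HG0065090 (1H, 427276806 to 427289072) had TPM values of 26.90, 28.60 and 27.27 in E934 and of 29.19, 28.55 and 27.71 in *msnsd*, with coefficients of variation of 3.24% and 2.61%. The libraries were interleaved, with a log2 difference of 0.05 ± 0.08 (limma adjusted p = 0.856). HORVU.MOREX.r3.3HG0307140 (3H, 564110797 to 564119506) had TPM values of 19.68, 18.37 and 15.55 in E934 and of 15.19, 17.85 and 15.92 in *msnsd* (log2 difference -0.13 ± 0.12, limma adjusted p = 0.730). Both rest on mean normalized counts above those of every array member, 2667 and 1367.

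**Figure D5:**
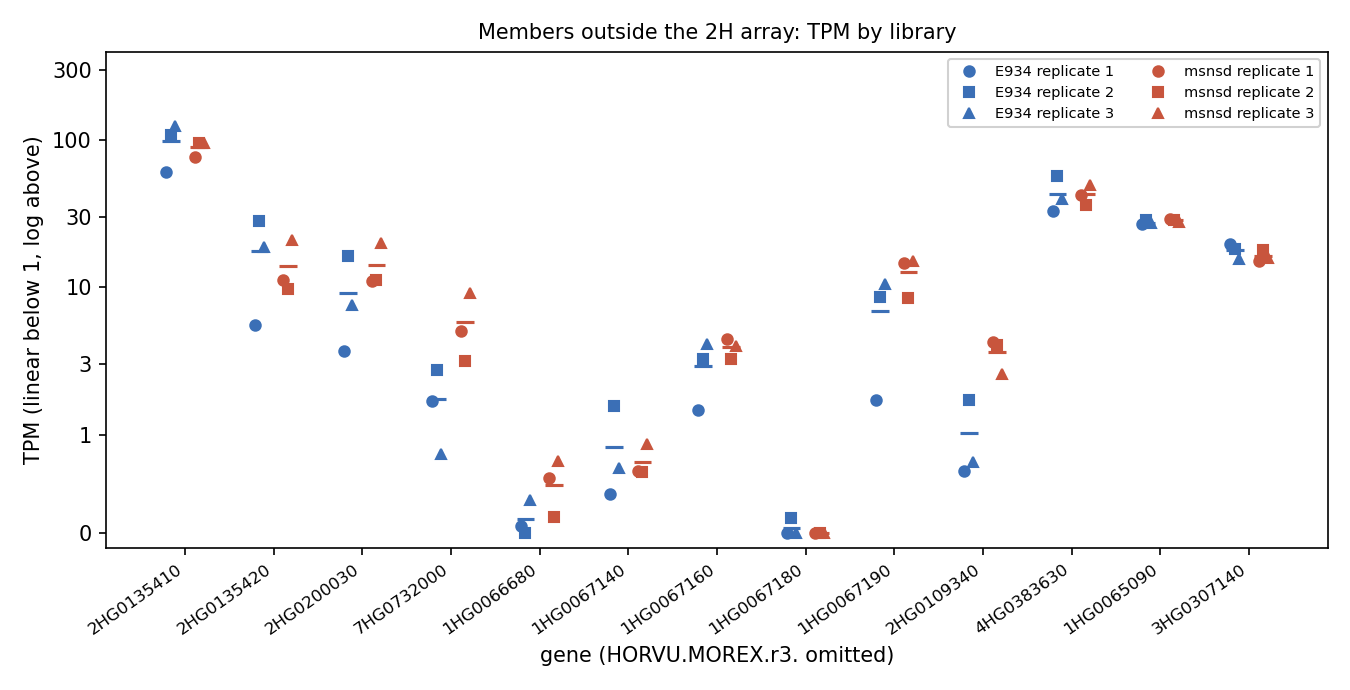
TPM of the 13 members outside the 2H array in each library (y axis, linear below 1 and logarithmic above), ordered by family (PF12609, protease inhibitors, PF07107, PF08729), with a marker per replicate and a line at the mean of 3 libraries. The genotypes separate at 7HG0732000 and 2HG0109340 only, and the PF08729 genes at the right have the narrowest spread.

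Other genes linked to damage were read from lists made by description, without the 19 members. The jasmonate list (lipoxygenases, allene oxide enzymes and 12-oxophytodienoate reductases, which make the hormone, with jasmonate-named and TIFY genes, which include its JAZ repressors) held 78 genes, of which 61 were tested. Before adjustment, 9 had a limma p under 0.05 with the higher mean in *msnsd* and 1 with the lower, where all genes tested gave 5.58% and 5.09%, and 0 were past the threshold (smallest adjusted p = 0.0535). Their median log2 difference was 0.28, and their summed TPM ranged from 1419 to 2067 in E934 and from 1788 to 2448 in *msnsd*. Of 52 other proteinase inhibitors tested of 67, 5 were higher and 3 lower by the same p, with a median log2 difference of 0.03. Of 108 heat shock genes tested of 133, which mark stress to proteins, 12 were higher and 8 lower, with a median of -0.02, and both lists are to be read beside the same 5.58% and 5.09% of all genes tested. The heat shock sums were 5931 to 6192 TPM in E934 and 5549 to 5765 TPM in *msnsd*. Neither list had a gene past the threshold (smallest adjusted p in limma 0.140 and 0.0610). The heat shock sums thus did not overlap between genotypes. The part of damage or handling of the panicles in the values of the array was not tested.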

How the data were processed

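The authors mapped clean reads to the barley Morex V3 assembly, quantified transcripts with Salmon 1.9.0 and deposited TPM per gene and library, to the second decimal. The submitters' processing notes also name fastp. The deposited mean normalized count, a score over all 6 libraries from the authors' DESeq2 run, was used to show how many reads stand behind a gene and to weight 1 sum. The remaining columns hold the authors' own comparison (fold changes with their errors, test statistics and p or q values) and were not used.

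From the TPM, log2(TPM + 0.1) was fitted with limma 3.58.1 in R 4.3.3 (lmFit and eBayes with trend = TRUE, groups by genotype alone) over genes whose TPM averaged 0.1 or more, with Benjamini-Hochberg adjustment over all 32968. No count model was applied to TPM. The test was tried on simulated TPM with changes larger than the main log2 difference of any member. That run does not show how often changes of the members' size would be called. The members and gene lists were chosen with earlier results of these data known. Named with values by rule were members in tandem arrays, members in the study's list of differential transcripts or with a mean TPM of at least 5, and genes between members of an array; the remaining members are given as well. RefSeq gene models of the Morex V3 pseudomolecules were matched by overlap. Motif and protein comparisons were not made. Figures were drawn with Python 3.11.15 and matplotlib 3.10.9. Alternatives were other pseudocounts (1 and 0.01), filters, scalings, no trend, a replicate block, each library left out, other array distances and members by domain. Whether same-named replicates came from separate plants is not given. The limma p-values set the genotype difference against the spread between these libraries, which limma adjusts towards that of genes at a similar level.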

Additional observations from a re-analysis of the deposited data

How the results depend on the processing

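The count of members past the threshold was 0 under every alternative run, with smallest adjusted p of a member from 0.0698 (limma, without E934 replicate 1) to 0.403 (without *msnsd* replicate 3). With the unadjusted limma p under 0.05, members higher in *msnsd* numbered 7 to 9, and 5 of the 6 array genes were among them, or 6 without E934 replicate 1. Over all genes and both directions, the count at this p was 3517, and it ran from 2302 without *msnsd* replicate 3 to 5120 without E934 replicate 1. Members lower numbered 0, except 1 without E934 replicate 1, HORVU.MOREX.r3.2HG0135410 (log2 difference -0.39, limma adjusted p = 0.232). Leaving out a library gave a range of 0 to 1 for this count. Genes past the threshold over the whole table were 16, against 25 when the filter asked for an average of 1 TPM, 30 without the trend, 0 with the replicate block (3525 genes at an unadjusted p under 0.05) and 0 to 22 when a library was left out. With the block, members higher at an unadjusted p were 8, and the count of arrays was 3 at each distance tried. Members without overlap were 8 with median-of-ratios scaling. The replicate numbers do not pair the libraries by any label, and deviations of same-numbered libraries correlated at 0.02, -0.07 and 0.04 across genes. The block changed no call of a member. The cause of these changes was not tested.

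Of 264 values of log2 differences of single genes under 14 alternatives, 10 changed sign, all when a library was left out and all in genes with a main value next to 0. Over the fits without a library, HORVU.MOREX.r3.4HG0383630 ranged from -0.16 to 0.24, HORVU.MOREX.r3.1HG0067140 from -0.48 to 0.39, HORVU.MOREX.r3.2HG0135410 from -0.39 to 0.14 and HORVU.MOREX.r3.2HG0135420 from -0.81 to 0.36. No array gene changed sign, and their values ran from 0.87 to 3.52.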
